A study of Bos taurus with 15 samples.

Results

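Transcripts of 38 genes of the cell cycle and DNA replication were measured in the endometrium, the lining of the uterus, of 15 heifers. The 38 genes were taken by symbol from the 32671 entries of a gene table, and every symbol was found. They comprise 6 genes of replication licensing and the replication fork (MCM2, MCM3, MCM4, MCM5, MCM6, PCNA), 3 of nucleotide supply (RRM1, RRM2, TYMS) and 3 transcription factors (E2F1, FOXM1, MYBL2). The other 26 act mainly in G2 and mitosis: cyclins and their kinase (CCNA2, CCNB1, CCNB2, CDK1), mitotic kinases and checkpoint proteins (AURKA, AURKB, PLK1, TTK, BUB1, BUB1B), spindle, kinetochore and cytokinesis proteins (CENPE, CENPF, KIF11, KIF20A, KIF23, KIF2C, NUSAP1, PRC1, TPX2, CDCA8), chromosome proteins (MKI67, TOP2A, NCAPG, NCAPH) and 2 proteins of the anaphase-promoting complex pathway (CDC20, UBE2C).

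The labels put 5 heifers each in the Sub-fertile, Infertile and High-fertile classes, all biopsied on day 14 of pregnancy. Every heifer had its estrous cycle synchronised with prostaglandin F, GnRH, an intravaginal progesterone insert, estradiol and progesterone, and received an embryo produced in vivo on day 7, per the labels' protocols. Heifers without estrus by day 0 also received GnRH and estradiol benzoate. The tissue came from the horn on the side of the corpus luteum and was taken with forceps after a flush. The sources used here give neither how the classes were assigned nor whether the flush recovered a conceptus. Each heifer gave 1 library, and the spread inside a class is therefore a spread between animals. A biopsy holds epithelium, stroma, vessels and immune cells, and in such bulk tissue a larger number of cells in the cycle and more RNA of these genes per cell cannot be told apart.

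In a dividing cell, E2F transcription factors switch on replication genes at the entry into S phase, when MCM helicases unwind the DNA and nucleotide synthesis rises. B-type cyclins with the kinase CDK1 then drive mitosis, the FOXM1 and MYBL2 factors switch on mitotic genes, and the anaphase-promoting complex ends mitosis by marking cyclins and other proteins for destruction. Resting cells keep most of these transcripts low. The endometrium renews under estrogen, while progesterone of the luteal phase opposes division of its luminal epithelium.

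Libraries held 38017136 to 62858724 counts. Levels are given as CPM, counts scaled to a common library size after TMM normalisation, and 0 counts in a library allows up to 3 counts, or 0.0492 to 0.0783 CPM, by counting error alone. Infertile replicate 2 stood apart from the others and is treated next. Counts of 372 pseudogenes and ribosomal RNA genes split the libraries into sets of 8, 5 and 2, of which the 5-library set held replicates 1, 2 and 5 of the Sub-fertile class with replicates 3 and 5 of the Infertile class, and the 2-library set held Infertile replicate 2 and High-fertile replicate 1. The 5-library set held no High-fertile heifer, so set and class overlap. These sets were found after the data had been seen, without use of the class, and the labels name no batch.

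Most of the 38 genes were at very low levels. In deposited FPKM, which divide fragments by gene length and by depth, 22 of the 38 were below 1 and 27 below 2 in the median of the 14 libraries other than Infertile replicate 2. CCNB1, the main mitotic B-type cyclin, was the highest, at a median of 97.8 FPKM over all 15 libraries, whereas CCNB2, its close relative, was at 0.10 FPKM. RRM1, the large subunit of ribonucleotide reductase, was at 56.7 FPKM and RRM2, the small subunit that cells make in S phase, at 0.22 FPKM. TYMS, thymidylate synthase, was at 25.8 FPKM and PCNA, the sliding clamp of DNA polymerase, at 23.8 FPKM. The 5 MCM genes, subunits of the replicative helicase, lay between 7.66 FPKM for MCM3 and 10.5 FPKM for MCM6. CDK1 was at 4.32 FPKM and PLK1, a kinase of mitotic entry, at 8.05 FPKM. MKI67, the gene of the proliferation antigen Ki-67, was at 0.17 FPKM, TOP2A, the topoisomerase that untangles chromosomes, at 0.42 FPKM, and FOXM1 at 0.06 FPKM. TTK, a kinase of the spindle checkpoint, was the lowest at 0.03 FPKM. It had 51 counts in all 15 libraries together and was the only 1 of the 38 that failed the filter on low counts, so 37 were tested. A second entry named MCM4-2 had 0.0398 to 3.55 CPM, and reads may have been divided between it and MCM4.

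**Figure D1:**
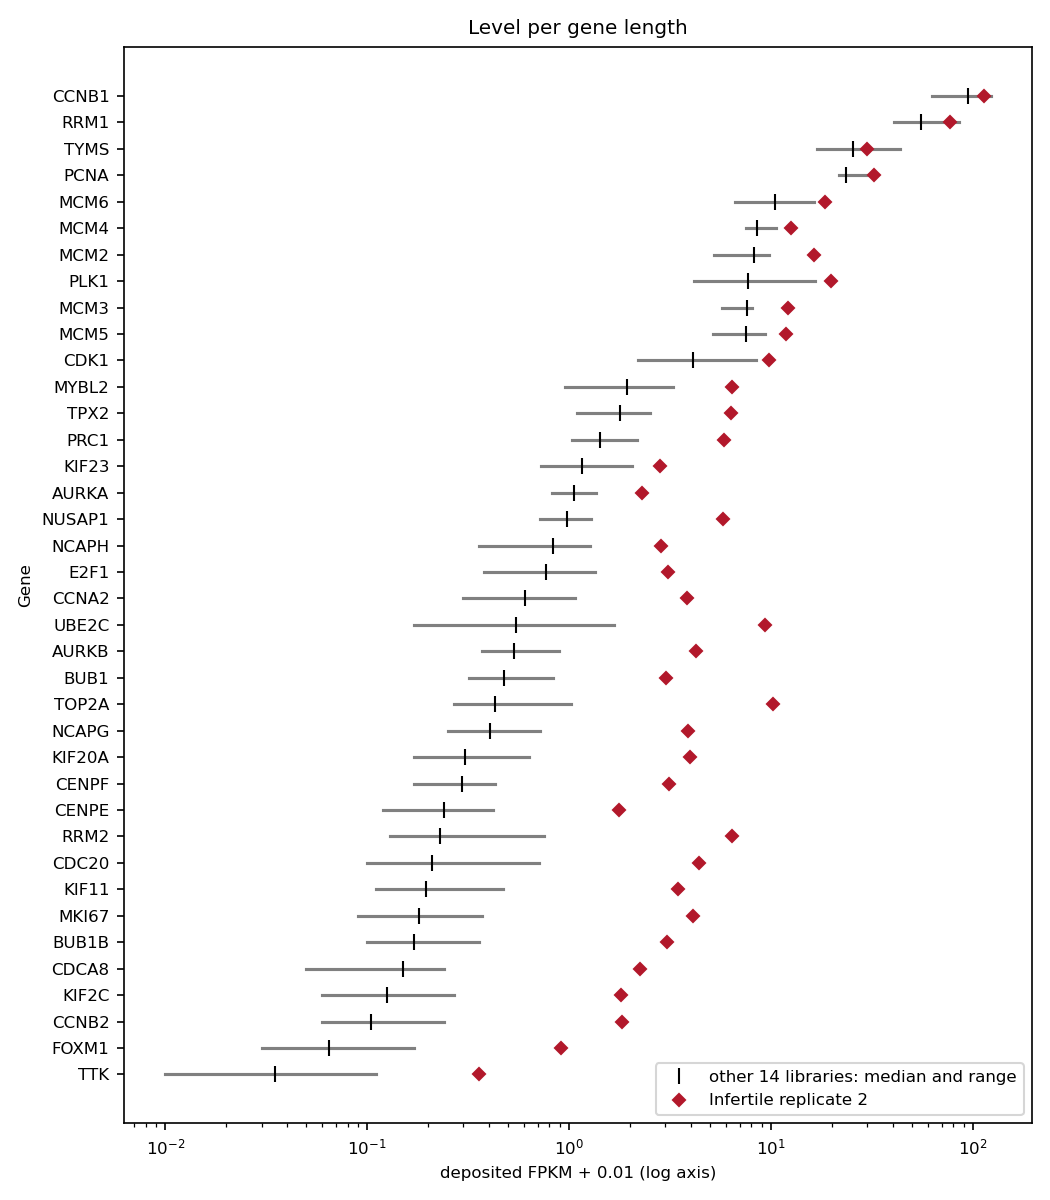
Deposited FPKM plus 0.01 (log axis) of each of the 38 genes, 1 row a gene: bars span the other 14 libraries with their median, diamonds show Infertile replicate 2. CCNB1, RRM1, TYMS and PCNA are the highest rows, and the diamond lies outside the bar for most of the low rows.

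The library highest in MKI67 was Infertile replicate 2. MKI67 had 2.61, 1.83, 2.37, 1.56 and 1.53 CPM in the Sub-fertile, 1.84, 46.7, 1.86, 2.26 and 0.919 CPM in the Infertile and 3.21, 1.98, 2.63, 1.19 and 4.17 CPM in the High-fertile heifers. The 46.7 CPM of that heifer were 24.3 times the median of the other 14 libraries and 11.2 times the next highest, and the other 14 overlapped across the classes. Of the 38 genes, 34 had their highest level of all 15 libraries in this heifer, against 15.5% of the 19962 genes tested. The 4 exceptions were RRM1, CCNB1, TYMS and PCNA; with scaling by library size alone 35 were highest there, PCNA among them. Among the 37 members tested, 25 stood in this heifer above the other 4 Infertile heifers by a gap of over 0.71 of the class range, against 4.7% of all genes tested. In this heifer 29 of the 38 were more than 2-fold above the median of the other 14 libraries (10.6% of all genes tested), 21 more than 4-fold (3.39%) and 14 more than 10-fold. The median of these ratios was 6.01 over the 38 genes and 0.995 over all genes tested. The library was chosen by MKI67, itself among the 34, so these ratios describe 1 heifer and carry no test.

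**Figure D2:**
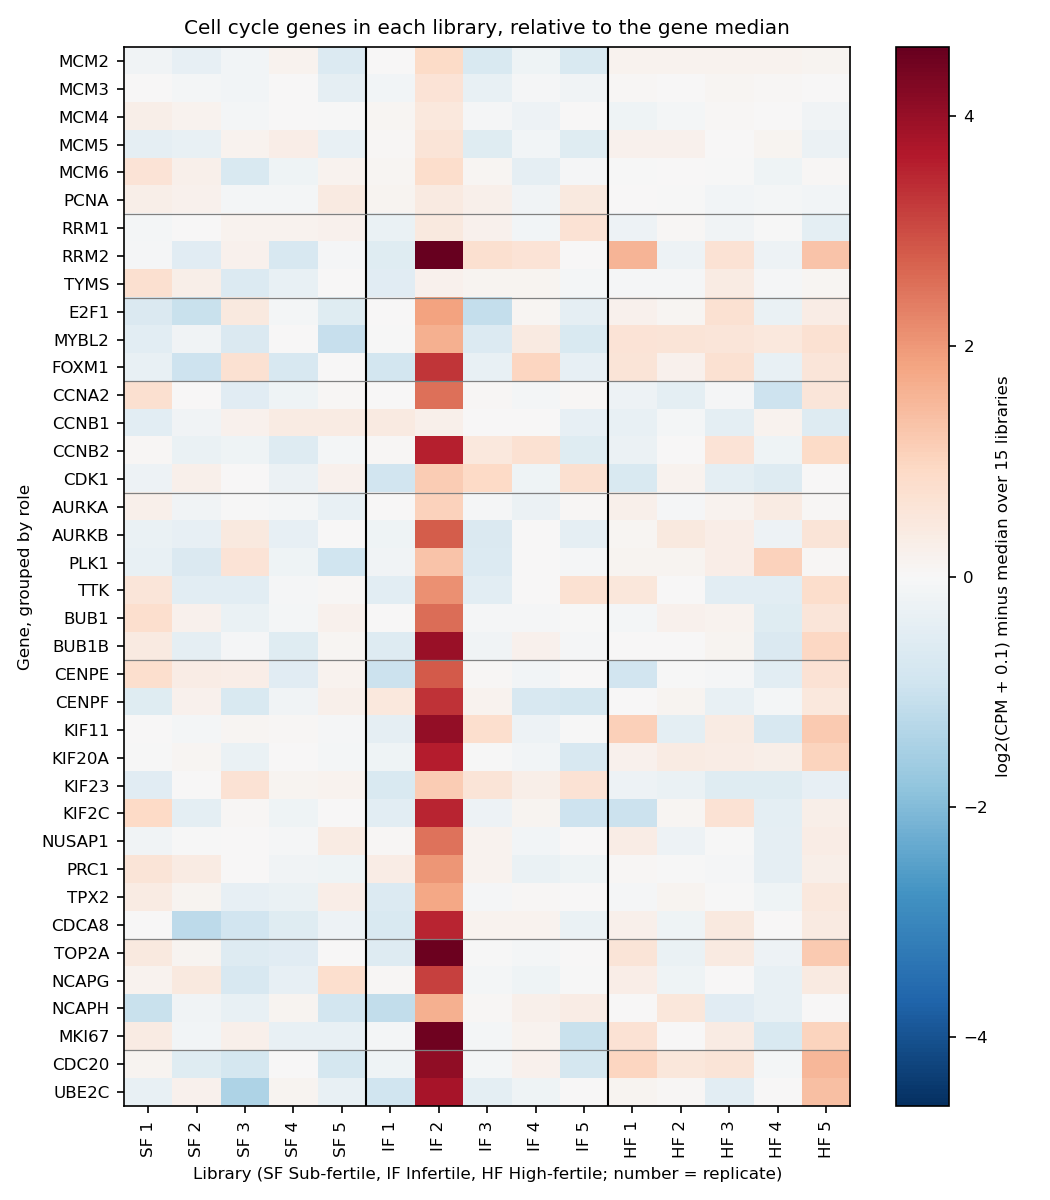
Level of each of the 38 genes (rows, by role) in each library (columns: Sub-fertile, Infertile, High-fertile), as log2(CPM + 0.1) minus the gene's median over the 15 libraries. The column of Infertile replicate 2 is the high one, above all others for 34 of the 38 genes.

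The MCM genes and PCNA were less than 2-fold above the median of the other libraries in this heifer. MCM2 had 26.7, 23.0, 27.4, 33.8 and 19.3 CPM in the Sub-fertile, 30.1, 55.4, 18.7, 26.1 and 18.5 CPM in the Infertile and 33.3, 33.5, 33.4, 33.4 and 33.0 CPM in the High-fertile heifers. Apart from Infertile replicate 2, all Infertile values of MCM2 lay below all High-fertile values, as did 4 of the 5 Sub-fertile values. MCM5 had 14.1, 14.7, 21.2, 23.0 and 14.9 CPM in the Sub-fertile, 19.8, 28.3, 12.7, 17.4 and 12.7 CPM in the Infertile and 21.7, 21.6, 18.9, 20.5 and 15.8 CPM in the High-fertile heifers. The classes overlapped for MCM5, and its 5 lowest values were those of the 5-library set. PCNA had 57.1, 55.3, 44.6, 45.1 and 63.9 CPM in the Sub-fertile, 52.0, 63.5, 56.3, 43.0 and 65.4 CPM in the Infertile and 47.7, 46.8, 44.2, 44.6 and 43.5 CPM in the High-fertile heifers. The classes overlapped for PCNA too, and its higher values were those of the 5-library set and of Infertile replicates 1 and 2. The ratio of Infertile replicate 2 to the median of the other 14 was 1.93 for MCM2, 1.56 for MCM5 and 1.34 for PCNA, and the other MCM genes lay at 1.58 (MCM3), 1.43 (MCM4) and 1.74 (MCM6). The High-fertile values of MCM2 lay within 33.0 to 33.5 CPM, a far narrower spread than in the other classes. Of the nucleotide-supply genes, RRM2 had 0.679, 0.463, 0.842, 0.393 and 0.683 CPM in the Sub-fertile, 0.461, 19.6, 1.27, 1.15 and 0.715 CPM in the Infertile and 2.30, 0.595, 1.20, 0.597 and 1.93 CPM in the High-fertile heifers. RRM2 thus had the highest ratio of the 38 genes, 28.1, while its partner RRM1 was at 1.38 times the median, below Infertile replicate 5 (265 CPM against 230.0 CPM). TYMS had 70.1, 50.2, 27.4, 33.2 and 42.1 CPM in the Sub-fertile, 29.0, 47.9, 46.2, 46.0 and 39.4 CPM in the Infertile and 40.3, 40.7, 54.6, 40.1 and 44.9 CPM in the High-fertile heifers. The classes overlapped, Sub-fertile replicate 1 was highest, and the level in Infertile replicate 2 was 1.16 times the median of the others.

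The 3 transcription factors had ratios in this heifer above those of the MCM genes. E2F1, an activator of replication genes, had 1.097, 0.834, 2.53, 1.70 and 1.18 CPM in the Sub-fertile, 1.80, 6.76, 0.793, 1.95 and 1.33 CPM in the Infertile and 2.08, 1.90, 2.98, 1.43 and 2.30 CPM in the High-fertile heifers. FOXM1 had 0.157, 0.0695, 0.432, 0.0983 and 0.228 CPM in the Sub-fertile, 0.0838, 3.11, 0.159, 0.545 and 0.153 CPM in the Infertile and 0.396, 0.278, 0.429, 0.159 and 0.386 CPM in the High-fertile heifers. For both, Infertile replicate 2 was highest and the other heifers overlapped across the classes. MYBL2, a subunit of the complex that binds mitotic gene promoters, had 4.05, 5.05, 3.53, 5.69 and 2.69 CPM in the Sub-fertile, 5.63, 17.8, 3.63, 7.65 and 3.42 CPM in the Infertile and 8.83, 8.63, 8.34, 8.10 and 9.19 CPM in the High-fertile heifers. All 5 High-fertile values of MYBL2 lay above every Sub-fertile value and above 4 of the 5 Infertile values. The ratio in Infertile replicate 2 was 3.86 for E2F1, 16.1 for FOXM1 and 3.14 for MYBL2. FOXM1 rested on 316 counts in all libraries, as few as 3 in 1 library.

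Cyclins and mitotic kinases differed widely among themselves. CCNB1 had 101, 126, 163, 184 and 183 CPM in the Sub-fertile, 189, 165, 145, 142 and 108 CPM in the Infertile and 112, 135, 105, 159 and 93.0 CPM in the High-fertile heifers. CDK1 had 13.2, 18.2, 15.6, 13.0 and 17.7 CPM in the Sub-fertile, 8.42, 34.6, 29.1, 13.7 and 26.0 CPM in the Infertile and 9.52, 17.5, 11.4, 10.2 and 15.5 CPM in the High-fertile heifers. Both overlapped across the classes, with Infertile replicate 1 highest for CCNB1 and Infertile replicates 2, 3 and 5 highest for CDK1. In Infertile replicate 2 CCNB1 was at 1.19 and CDK1 at 2.37 times the median of the others, whereas CCNB2 was at 18.2 (3.47 CPM against 0.0983 to 0.447 CPM) and CCNA2, the cyclin of S phase and G2, at 6.22 (7.11 CPM against 0.557 to 1.98 CPM). PLK1 had 13.7, 10.9, 26.5, 14.9 and 9.15 CPM in the Sub-fertile, 15.2, 42.8, 11.1, 17.2 and 16.6 CPM in the Infertile and 18.9, 18.9, 21.0, 36.4 and 18.0 CPM in the High-fertile heifers. Below all 5 High-fertile values of PLK1 lay 4 of 5 Sub-fertile and 4 of 5 Infertile values, the exceptions being Sub-fertile replicate 3 and Infertile replicate 2. AURKB, the kinase of the chromosomal passenger complex, had 0.992, 0.950, 1.75, 0.951 and 1.28 CPM in the Sub-fertile, 1.09, 9.28, 0.770, 1.27 and 0.919 CPM in the Infertile and 1.34, 1.75, 1.59, 1.07 and 1.95 CPM in the High-fertile heifers. BUB1, a kinase of the spindle checkpoint, had 3.19, 2.15, 1.46, 1.72 and 2.14 CPM in the Sub-fertile, 1.84, 11.6, 1.77, 1.77 and 1.84 CPM in the Infertile and 1.71, 2.14, 2.09, 1.23 and 2.79 CPM in the High-fertile heifers. The ratio was 2.53 for PLK1, 7.88 for AURKB and 6.29 for BUB1, and without Infertile replicate 2 the classes overlapped for AURKB and BUB1. High-fertile replicate 4 had the next highest PLK1. BUB1B, a checkpoint protein that restrains CDC20, was at 11.3 CPM in Infertile replicate 2 against 0.358 to 1.30 CPM in the others, a ratio of 18.6. AURKA, the kinase of the spindle poles, was at 4.59 CPM against 1.68 to 2.81 CPM, a ratio of 2.16. TTK was at 0.489 CPM against 0 to 0.142 CPM and had 0 counts in 6 libraries.

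All 10 spindle, kinetochore and cytokinesis genes were highest in Infertile replicate 2. KIF11, the motor that pushes spindle poles apart, had 0.705, 0.648, 0.751, 0.738 and 0.683 CPM in the Sub-fertile, 0.503, 13.0, 1.29, 0.584 and 0.690 CPM in the Infertile and 1.61, 0.496, 0.947, 0.378 and 1.77 CPM in the High-fertile heifers. Its ratio was 18.7, the highest of this group, and the other 14 heifers overlapped across classes. Infertile replicate 2 against the range of the other 14 libraries gave 5.49 CPM against 0.148 to 0.810 CPM for KIF2C, a motor that takes microtubules apart. For CDCA8, a passenger complex subunit, it was 4.85 CPM against 0.0926 to 0.5003 CPM, and for KIF20A, a motor of cytokinesis, 11.8 CPM against 0.485 to 1.87 CPM. The kinetochore proteins CENPF and CENPE were at 33.5 CPM against 1.79 to 4.597 CPM and at 16.1 CPM against 1.05 to 3.81 CPM. The ratios of these 5 genes to the median of the others lay between 7.44 for CENPE and 15.7 for CDCA8. The 4 remaining genes of spindle building and the midzone had smaller ratios, 5.81 for NUSAP1, 4.12 for PRC1, 3.49 for TPX2 and 2.43 for KIF23.

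TOP2A had 3.29, 2.59, 1.55, 1.64 and 2.39 CPM in the Sub-fertile, 1.55, 56.4, 2.33, 2.22 and 2.45 CPM in the Infertile and 3.64, 1.92, 3.20, 2.01 and 5.70 CPM in the High-fertile heifers. NCAPG, a condensin subunit that compacts chromosomes, had 1.57, 1.92, 0.796, 1.05 and 2.44 CPM in the Sub-fertile, 1.45, 13.0, 1.29, 1.21 and 1.38 CPM in the Infertile and 1.76, 1.19, 1.39, 1.07 and 1.87 CPM in the High-fertile heifers. CDC20, the activator of the anaphase-promoting complex, had 0.444, 0.232, 0.182, 0.393 and 0.182 CPM in the Sub-fertile, 0.335, 8.28, 0.363, 0.467 and 0.179 CPM in the Infertile and 0.890, 0.615, 0.643, 0.358 and 1.32 CPM in the High-fertile heifers. Infertile replicate 2 was highest for all 3 and the other heifers overlapped across the classes. The ratios of Infertile replicate 2 to the median of the others were 23.9, 9.41 and 21.9 for these 3 genes. UBE2C, the ubiquitin-conjugating enzyme of that complex, was at 9.53 CPM against 0.159 to 1.71 CPM, a ratio of 17.3. NCAPH, another condensin subunit, was at 7.68 CPM against 1.03 to 3.45 CPM, a ratio of 3.42. Summed over the 38 genes, Infertile replicate 2 had 1157 CPM against 526 to 662 CPM in the others; without RRM1, CCNB1, PCNA and TYMS the sums were 650.5 CPM against 173 to 222 CPM.

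**Figure D3:**
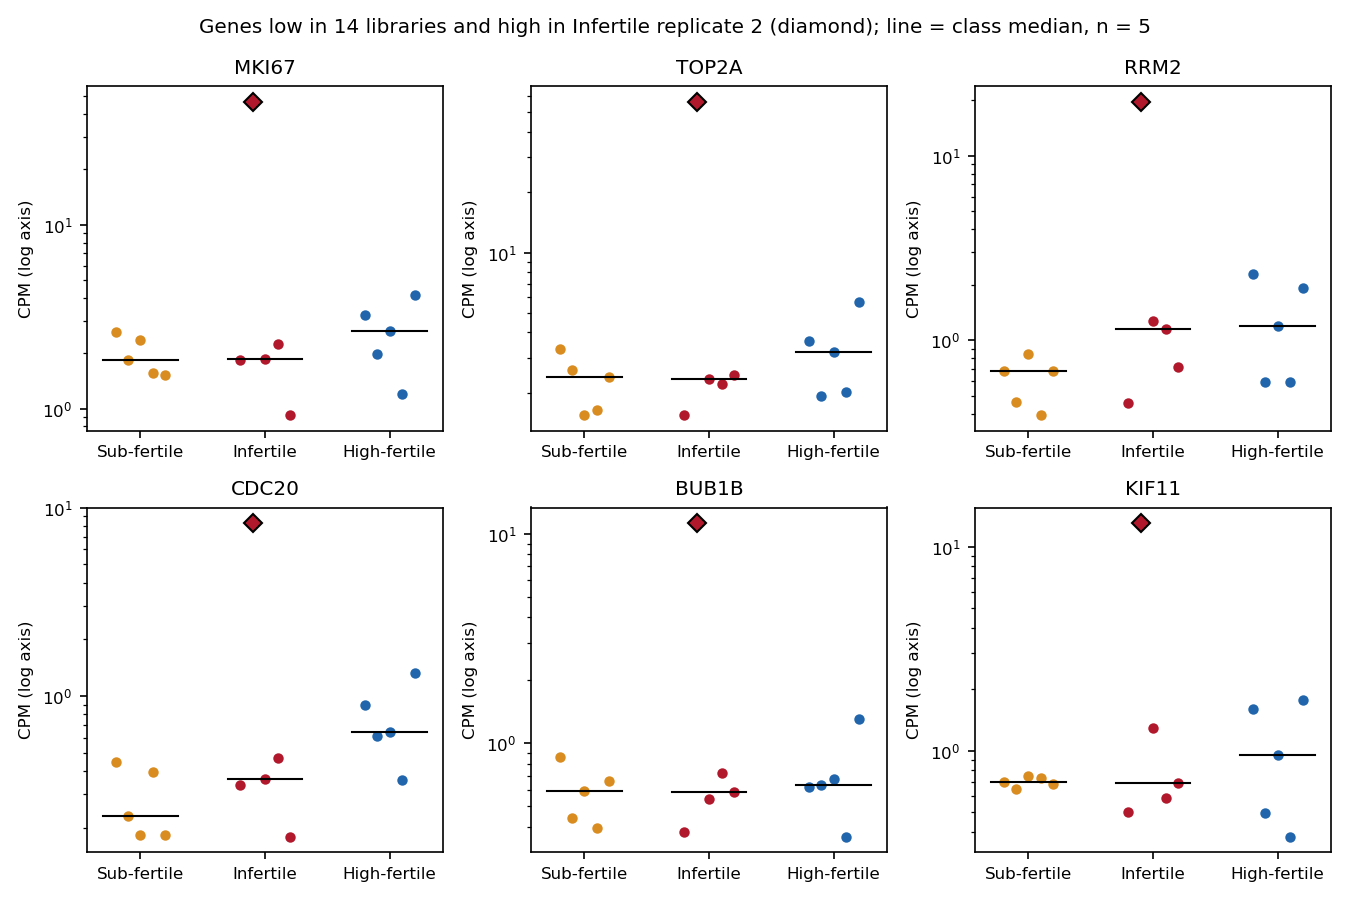
CPM (log axis) of MKI67, TOP2A, RRM2, CDC20, BUB1B and KIF11 in each heifer by class (Sub-fertile, Infertile, High-fertile; n = 5 each), with the class median as a line and Infertile replicate 2 as a diamond. The diamond is the highest point of every panel, 46.7 CPM for MKI67, and the other 14 points overlap across classes.

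Other genes of the cycle, from 5 lists, were also set against the other 14 libraries. Of 51 tested further genes of mitosis, 39 were highest in Infertile replicate 2, with a median ratio of 3.35; HJURP, which loads the centromeric histone, was at 36.8, and KIF18B and ASPM at 36.2 and 31.7. Of 43 further replication genes, 19 were highest there, with a median ratio of 1.27, and UHRF1, which maintains DNA methylation, was at 9.496. Among 10 G1 cyclins and kinases 7 were highest, from 0.343 for CCND3 to 4.14 for CCNE1. Of 13 CDK inhibitors and RB family genes 3 were highest, with a median ratio of 1.05, from 0.647 for RBL2 to 2.42 for GADD45A. In this list CDKN1B, RB1, RBL2 and BTG2 were lower in this heifer than in all 14 others. Of 11 other E2F and MYB family genes 6 were highest there, with a median ratio of 1.45, and E2F8, a repressor made in S phase, was at 26.2. Over all genes tested 15.5% were highest in this heifer.

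Markers of other cell types also differed in Infertile replicate 2, and their part in the cell cycle values was not tested. The summed neutrophil list (6 of 6 genes detected) was 193 CPM against 5.14 to 34.7 CPM in the other 14 libraries. S100A12 made up most of this sum, at 121 CPM against 2.08 to 11.2 CPM. S100A8 was at 26.2 CPM against 0.279 to 2.43 CPM, and S100A9 at 25.0 CPM against 0.741 to 6.22 CPM. CXCR2 was at 9.68 CPM against 0.486 to 4.48 CPM. CSF3R was only just above the others, at 10.6 CPM against 0.926 to 10.1 CPM. MMP9, at 0.298 CPM, lay within their range of 0 to 0.638 CPM. The stromal fibroblast list, 7 of 7 detected, was 29592 CPM against 8263 to 23872 CPM. Its collagen genes were above all others, COL3A1 at 18627 CPM against 3647 to 12611 CPM and COL1A1 at 6893 CPM against 630 to 3357 CPM. PDGFRA was below all others, at 135 CPM against 173 to 488 CPM, and VIM, DCN, LUM and HOXA11 lay within their range. The list of endometrial receptors was 488 CPM against 117 to 456 CPM. Within it the progesterone receptor gene PGR was at 51.5 CPM against 1.89 to 15.1 CPM and the oxytocin receptor gene OXTR at 176 CPM against 1.43 to 68.3 CPM. ESR1, at 25.8 CPM against 4.90 to 24.3 CPM, and FOXL2, at 8.68 CPM against 1.89 to 5.70 CPM, were also above all others. HOXA10 and HOXA11, also on this list, lay within the range of the others. The macrophage list was 164 CPM against 59.9 to 192 CPM, ranking 2 of 15 with MARCO at 0 in this heifer. The T and NK cell list was 31.4 CPM against 13.7 to 31.0 CPM, ranking 1. Of its genes CD8A, at 7.28 CPM against 1.43 to 5.49 CPM, and NKG7, at 6.64 CPM against 1.85 to 5.31 CPM, were above all others. CD3D, CD3E, CD3G, CD2 and CD5 lay within the range of the others. B cell markers were 7.15 CPM against 3.39 to 64.8 CPM, ranking 6. The summed trophoblast list was lowest in this heifer, 9.998 CPM against 14.4 to 129.9 CPM, but its genes went different ways. PTGS2, which the uterine lining also expresses, was at 1.36 CPM against 12.3 to 128 CPM, while GATA3 was higher than in all others, 8.06 CPM against 1.05 to 4.01 CPM. IFNT2 and PAG2 lay within the range of the others, PAG11 was at 0 in every library and CDX2 at 0 in this heifer. The pseudogene and ribosomal RNA share of this heifer was 1.23%, against 1.11% in High-fertile replicate 1 and 2.42% to 3.30% in the others. The epithelial list, all 7 detected, was 841 CPM against 535 to 1552 CPM, ranking 13, but its genes went different ways. KRT19 was above all others, at 128 CPM against 12.8 to 59.2 CPM. EPCAM, at 285 CPM, and CLDN4, at 35.0 CPM, were below the medians of the others, 426 and 87.0 CPM. Plasma cell genes were 440.4 CPM against 236 to 631 CPM, endothelial genes 714 CPM against 515 to 1075 CPM, smooth muscle genes 2094 CPM against 459 to 21056 CPM, ciliated cell genes 278 CPM against 90.5 to 394 CPM and germinal-centre and follicle genes 91.3 CPM against 48.7 to 94.3 CPM, with CXCR5 at 0 in this heifer. Red cell genes were lowest there, 0.277 CPM against 0.594 to 5.93 CPM. By class, the neutrophil sums were 5.14 to 15.8 CPM in Sub-fertile, 7.02 to 193 CPM in Infertile and 7.16 to 34.7 CPM in High-fertile heifers, and the stromal sums 9526 to 23872 CPM in Sub-fertile, 8263 to 29592 CPM in Infertile and 12062 to 20703 CPM in High-fertile heifers.

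The members not given by heifer above had these class means, with Infertile replicate 2 left out of its class (SD, n = 5, 4 and 5). MCM3 averaged 21.5 ± 2.43 CPM in Sub-fertile, 20.8 ± 1.80 CPM in the 4 other Infertile and 23.9 ± 0.430 CPM in High-fertile heifers. MCM4 averaged 15.5 ± 1.67 CPM in Sub-fertile, 14.3 ± 1.39 CPM in the 4 other Infertile and 14.2 ± 1.14 CPM in High-fertile heifers. MCM6 averaged 28.3 ± 9.31 CPM in Sub-fertile, 25.4 ± 3.996 CPM in the 4 other Infertile and 25.9 ± 1.70 CPM in High-fertile heifers. Of these 3 MCM genes MCM3 was the 1 whose 4 Infertile values all lay below the High-fertile values. RRM1 averaged 179 ± 14.5 CPM in Sub-fertile, 187 ± 57.8 CPM in the 4 other Infertile and 150.3 ± 20.0 CPM in High-fertile heifers. CCNA2 averaged 1.22 ± 0.457 CPM in Sub-fertile, 1.16 ± 0.0618 CPM in the 4 other Infertile and 1.04 ± 0.447 CPM in High-fertile heifers. CCNB2 averaged 0.158 ± 0.0421 CPM in Sub-fertile, 0.255 ± 0.126 CPM in the 4 other Infertile and 0.262 ± 0.133 CPM in High-fertile heifers. The classes overlapped for these 3 genes. AURKA averaged 2.04 ± 0.315 CPM in Sub-fertile, 2.05 ± 0.203 CPM in the 4 other Infertile and 2.39 ± 0.287 CPM in High-fertile heifers. TTK averaged 0.0366 ± 0.0429 CPM in Sub-fertile, 0.0417 ± 0.0602 CPM in the 4 other Infertile and 0.0562 ± 0.0629 CPM in High-fertile heifers. BUB1B averaged 0.589 ± 0.187 CPM in Sub-fertile, 0.557 ± 0.142 CPM in the 4 other Infertile and 0.718 ± 0.350 CPM in High-fertile heifers. These kinases and checkpoint genes overlapped as well. CENPE averaged 2.64 ± 0.836 CPM in Sub-fertile, 1.87 ± 0.555 CPM in the 4 other Infertile and 2.08 ± 0.899 CPM in High-fertile heifers. CENPF averaged 2.90 ± 0.861 CPM in Sub-fertile, 2.96 ± 1.36 CPM in the 4 other Infertile and 3.36 ± 0.772 CPM in High-fertile heifers. KIF20A averaged 0.832 ± 0.0916 CPM in Sub-fertile, 0.720 ± 0.163 CPM in the 4 other Infertile and 1.24 ± 0.355 CPM in High-fertile heifers. KIF20A lay below the High-fertile range in every Sub-fertile and in these 4 Infertile heifers, and the CENPE and CENPF values overlapped. KIF2C averaged 0.438 ± 0.216 CPM in Sub-fertile, 0.288 ± 0.116 CPM in the 4 other Infertile and 0.398 ± 0.206 CPM in High-fertile heifers. NUSAP1 averaged 2.31 ± 0.365 CPM in Sub-fertile, 2.31 ± 0.203 CPM in the 4 other Infertile and 2.30 ± 0.558 CPM in High-fertile heifers. PRC1 averaged 4.53 ± 1.16 CPM in Sub-fertile, 4.15 ± 0.906 CPM in the 4 other Infertile and 4.02 ± 0.685 CPM in High-fertile heifers. The classes overlapped for all 3. TPX2 averaged 6.21 ± 1.44 CPM in Sub-fertile, 5.44 ± 1.09 CPM in the 4 other Infertile and 6.33 ± 1.18 CPM in High-fertile heifers. CDCA8 averaged 0.208 ± 0.1001 CPM in Sub-fertile, 0.299 ± 0.108 CPM in the 4 other Infertile and 0.405 ± 0.0960 CPM in High-fertile heifers. Both overlapped across the classes, as did the condensin and ubiquitin-conjugating genes that follow. NCAPH averaged 1.79 ± 0.593 CPM in Sub-fertile, 2.33 ± 0.905 CPM in the 4 other Infertile and 2.35 ± 0.706 CPM in High-fertile heifers. UBE2C averaged 0.482 ± 0.213 CPM in Sub-fertile, 0.450 ± 0.145 CPM in the 4 other Infertile and 0.796 ± 0.521 CPM in High-fertile heifers.

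Sub-fertile against High-fertile heifers gave no call among the genes of the cycle. By edgeR's quasi-likelihood test with Benjamini-Hochberg adjustment over 19962 genes, 0 of the 37 tested genes passed an adjusted p of 0.05, as did 0% of all genes. DESeq2, which gave no adjusted p for 14 of the 37 in any comparison, limma-voom and the edgeR likelihood ratio test also called 0 of them. At an unadjusted p under 0.05, 1 gene was lower, MYBL2, against 7.14% lower among all genes, and 0 were higher, against 6.58%. The median log2 fold change was -0.21 over the 37 genes, with 15 above and 22 below 0, and 0.013 over all genes tested. By role, the lowest median was -1.06, for the 2 genes of the anaphase-promoting complex pathway. It was -0.74 for the 3 transcription factors, -0.40 for the 4 chromosome genes and -0.29 for the 5 tested mitotic kinases and checkpoint genes. The 6 licensing and fork genes were at -0.011, and the 10 spindle, kinetochore and cytokinesis genes at -0.0082. The 3 nucleotide-supply genes were at 0.015 and the 4 genes of cyclins and CDK1 at 0.25.

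MYBL2 averaged 4.20 ± 1.19 CPM over the Sub-fertile and 8.62 ± 0.424 CPM over the High-fertile class (SD, n = 5 each). All 5 Sub-fertile values lay below all 5 High-fertile values. The log2 fold change was -1.04 ± 0.38 (SE; unadjusted p 0.0167, edgeR adjusted p 0.360). KIF20A was the other gene without overlap, with 0.862, 0.926, 0.683, 0.869 and 0.820 CPM in the Sub-fertile and 1.01, 1.15, 1.13, 1.05 and 1.87 CPM in the High-fertile heifers and a log2 fold change of -0.58 ± 0.74 (edgeR adjusted p 0.686). These are 2 of 37 genes below without overlap, against 2.81% of all genes tested (2.79% without Infertile replicate 2, where the same 2 did not overlap). No gene lay above without overlap, against 2.26% of all genes (2.25% without that library). KIF23, a motor of the central spindle, averaged 6.98 ± 2.04 CPM over the Sub-fertile and 4.82 ± 0.488 CPM over the High-fertile class, with a log2 fold change of 0.54 ± 0.29 (edgeR adjusted p 0.372). PCNA averaged 53.2 ± 8.28 and 45.4 ± 1.80 CPM in these classes (0.23 ± 0.13, edgeR adjusted p 0.382), CCNB1 151 ± 36.7 and 121 ± 26.2 CPM (0.33 ± 0.20, 0.401), PLK1 15.02 ± 6.82 and 22.6 ± 7.80 CPM (-0.59 ± 0.37, 0.412) and MKI67 1.98 ± 0.489 and 2.64 ± 1.14 CPM (-0.42 ± 0.88, 0.818). With the sets of libraries in the model the MYBL2 value was -0.48, and the median over the 37 genes was 0.061, with 15 below 0. Without Infertile replicate 2 as well, a fit chosen after seeing the data, that median was -0.21, with 29 below 0. Within the 8-library set, which holds 2 Sub-fertile and 4 High-fertile heifers, it was -0.90 for MYBL2, with a median of -0.28 over the 37 genes and 31 below 0. Marker lists of B-lineage cells also lay apart in these classes. The summed B cell list was 3.39 to 6.37 CPM in Sub-fertile against 6.71 to 64.8 CPM in High-fertile heifers, the plasma cell list 236 to 329.6 against 334 to 631 CPM, and the germinal-centre and follicle list 48.7 to 68.8 against 71.7 to 94.3 CPM. The part of these cells in the MYBL2 and KIF20A values was not tested.

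The spread that all classes share in the model also carries Infertile replicate 2. Without that library 6 of the 37 genes were lower in Sub-fertile than in High-fertile heifers at an unadjusted p under 0.05, against 8.47% of all 20146 genes then tested, 0 were higher, against 8.63%, and 0 passed the adjusted threshold. These 6 were MCM2, RRM2, MYBL2, KIF20A, CDCA8 and CDC20. The library left out was chosen by MKI67 and was highest for 34 of the 38 genes, against 15.5% of all genes tested. Its removal may thus change the spread of these genes and of all genes unequally, which was not tested. MYBL2 was then at -1.04 ± 0.25 (unadjusted p 0.000960, edgeR adjusted p 0.291), CDC20 at -1.41 ± 0.41 (edgeR adjusted p 0.291) and RRM2 at -1.11 ± 0.43 (edgeR adjusted p 0.291).

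In Infertile against High-fertile heifers the values depended on Infertile replicate 2. Over all 15 libraries 32 of the 37 genes were above 0 and 5 below, with a median log2 fold change of 0.92 against 0.036 over all genes tested. Without Infertile replicate 2, 9 were above and 28 below 0, with a median of -0.22 against 0.0081. No gene passed the adjusted threshold either way: 0 of 37 by edgeR with 15 libraries (0% of all genes) and 0 of 37 without this library (0%), and 0 by limma-voom and the likelihood ratio test. DESeq2 called 0 too, of those with an adjusted p. At an unadjusted p under 0.05, 9 of the 37 were higher with all libraries, against 7.14% of all genes, and 0 lower, against 3.89%. Without the library, 1 was higher, against 9.95%, and 5 were lower, against 6.24%. The library was chosen by MKI67 and was highest for 34 of the 38 genes, against 15.5% of all genes tested. Shares over these genes and over all genes without it are therefore not alike. By role, the median log2 fold changes with and without the library were 1.66 and -0.37 for the 4 chromosome genes. They were 1.42 and -0.998 for the 2 genes of the anaphase-promoting complex pathway and 1.21 and -0.20 for the 10 spindle, kinetochore and cytokinesis genes. Cyclins and CDK1 were at 0.99 and 0.22, and mitotic kinases and checkpoint genes at 0.79 and -0.36. The nucleotide-supply genes were at 0.38 and -0.14, the 3 transcription factors at 0.24 and -0.54 and the 6 licensing and fork genes at 0.074 and -0.11.

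KIF23, the gene with the smallest p in this comparison, had 4.36, 6.37, 10.03, 6.95 and 7.19 CPM in the Sub-fertile, 3.92, 14.3, 9.63, 7.61 and 10.3 CPM in the Infertile and 5.37, 5.18, 4.29, 4.34 and 4.92 CPM in the High-fertile heifers. Its log2 fold change was 0.92 ± 0.29 (SE; unadjusted p 0.00604, edgeR adjusted p 0.435) and 0.70 ± 0.27 without Infertile replicate 2 (edgeR adjusted p 0.274). It was the 1 gene then higher at an unadjusted p under 0.05, and the classes overlapped. CDK1 averaged 22.4 ± 10.9 CPM in Infertile and 12.8 ± 3.49 CPM in High-fertile heifers (0.80 ± 0.32, edgeR adjusted p 0.439), PCNA 56.1 ± 9.07 and 45.4 ± 1.80 CPM (0.31 ± 0.13, 0.446) and RRM1 196 ± 53.6 and 150.3 ± 20.0 CPM (0.38 ± 0.17, 0.450). Without Infertile replicate 2 these 3 kept positive log2 fold changes of 0.59, 0.26 and 0.32. Within the 8-library set, with 2 Infertile and 4 High-fertile heifers, they were -0.32, 0.076 and -0.090.

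MKI67, BUB1B and KIF20A had opposite signs with and without the library. MKI67 averaged 10.7 ± 20.1 CPM over the Infertile and 2.64 ± 1.14 CPM over the High-fertile class, and 1.72 ± 0.567 CPM in the 4 other Infertile heifers. Its log2 fold change was 2.02 ± 0.90 with all libraries and -0.61 ± 0.36 without Infertile replicate 2 (edgeR adjusted p 0.450 and 0.385). BUB1B had 1.90 ± 0.84 and -0.36 ± 0.38, and KIF20A 1.23 ± 0.74 and -0.78 ± 0.27. Without the library 5 genes were below all 5 High-fertile heifers in all 4 Infertile heifers, KIF20A, MCM2, MCM3, MYBL2 and PLK1, against 2.67% of all genes tested; with it none were, against 1.1%. No gene of the 37 lay above without overlap, against 1.13% of all genes with the library and 2.89% without it. The library left out was chosen by MKI67 and was highest for 34 of the 38 genes, against 15.5% of all genes tested. Leaving it out thus takes away the highest Infertile value of these genes more often than of all genes. The shares without it are therefore not alike and carry no test. MCM2 was at -0.51 ± 0.18, MYBL2 at -0.76 ± 0.27 and PLK1 at -0.59 ± 0.30 then, none past the adjusted threshold (edgeR adjusted p 0.272, 0.272 and 0.338). KIF20A and MYBL2 were also the 2 genes that did not overlap in Sub-fertile against High-fertile heifers; both comparisons use the same 5 High-fertile libraries. Without Infertile replicate 2 the summed B cell list was 3.52 to 7.44 CPM in the 4 Infertile heifers against 6.71 to 64.8 CPM in High-fertile heifers, and its part was not tested.

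**Figure D4:**
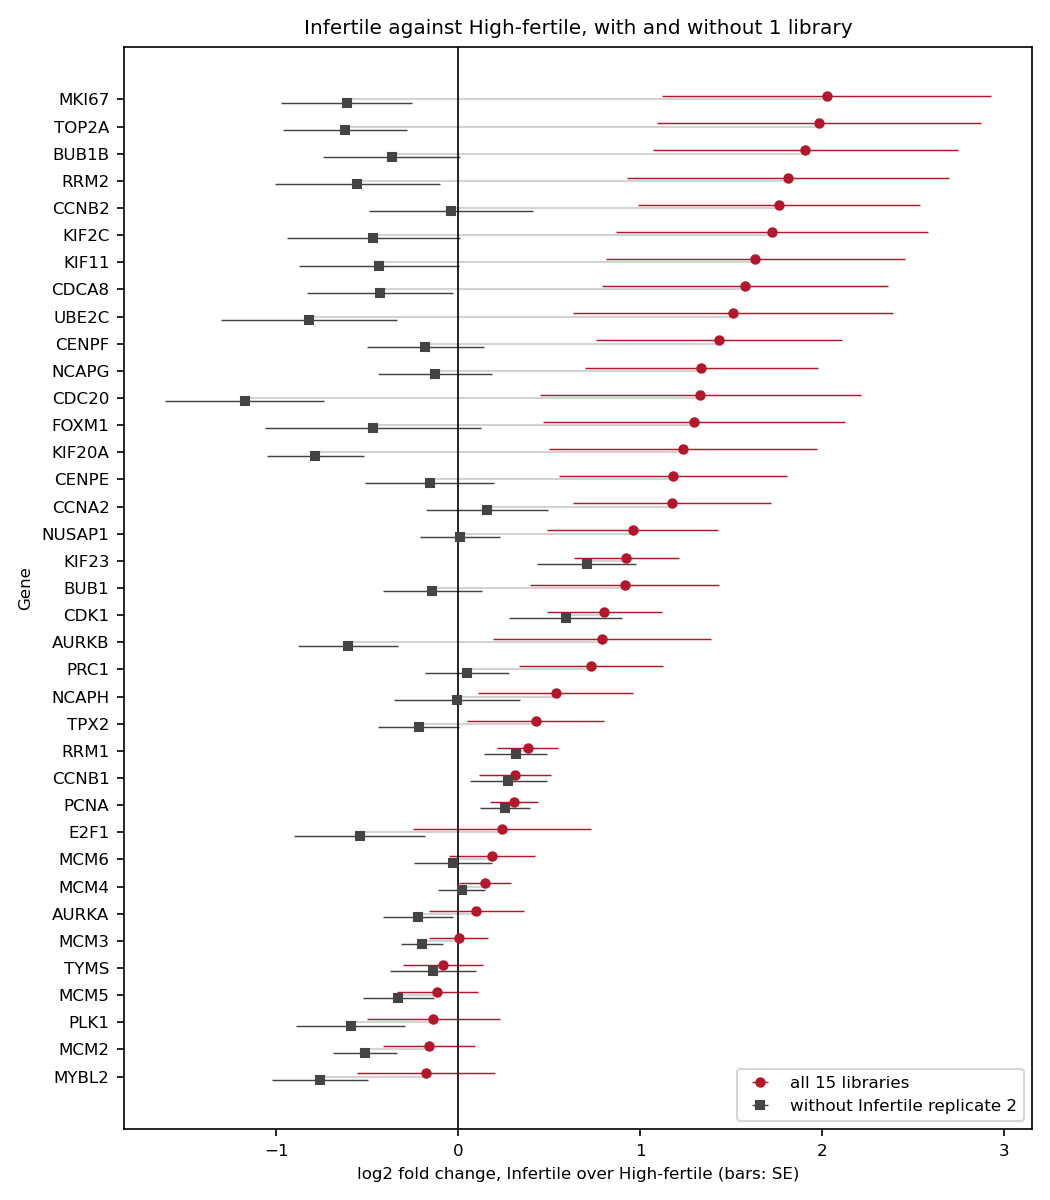
Log2 fold change of Infertile over High-fertile with its SE (horizontal axis) for the 37 tested genes, with all 15 libraries (circles) and without Infertile replicate 2 (squares). With all libraries 32 genes lie right of 0; without this library 9 do, KIF23 at 0.70 the farthest.

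Infertile against Sub-fertile heifers depended on the same library. With all 15 libraries 35 of the 37 genes were above 0 and the median log2 fold change was 0.86, against 0.025 over all genes tested. Without Infertile replicate 2, 14 were above and 23 below 0 and the median was -0.053, against 0.021. None of the 37 passed in either fit by edgeR (0% of all genes), nor by DESeq2, limma-voom or the likelihood ratio test. At an unadjusted p under 0.05, 14 were higher with all libraries, against 1.91% of all genes, and 0 lower, against 0.721%. Without the library 0 were higher, against 0.784%, and 0 lower, against 0.774%. RRM2 had the smallest p, with a log2 fold change of 2.92 ± 0.93 (SE; unadjusted p 0.00675, edgeR adjusted p 0.998), and 0.56 ± 0.45 without the library (edgeR adjusted p 1.00). Its Infertile mean was 4.65 ± 8.39 CPM and its Sub-fertile mean 0.612 ± 0.182 CPM, and 0.898 ± 0.376 CPM in the 4 other Infertile heifers. CDC20, at 2.74 ± 0.94 and 0.23 ± 0.44, CCNB2, at 2.51 ± 0.81 and 0.71 ± 0.46, and CDCA8, at 2.54 ± 0.83 and 0.53 ± 0.41, stayed above 0 without the library, while TOP2A was at 2.50 ± 0.91 and -0.099 ± 0.34 and MKI67 at 2.44 ± 0.92 and -0.20 ± 0.36. No gene of the 37 separated the 2 classes without overlap, with or without the library, against 0.205% and 0.462% of all genes in either direction. The joint F test over the 3 classes also called 0 of 37.

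A smaller share of the cell cycle genes than of all genes passed the test between the library sets. With class in the model, 4 of the 37 passed the adjusted threshold between the 5-library and the 8-library set, 1 higher and 3 lower, against 30.7% of all genes tested (13.1% higher and 17.6% lower). The difference between these shares was not tested. The spread in this fit also carries Infertile replicate 2, which shared a set term with High-fertile replicate 1 (MKI67 46.7 and 3.21 CPM). The log2 fold changes between the sets were -0.54 ± 0.63 for MKI67 and 0.26 ± 0.66 for TOP2A. No test between the sets was made without that library, so its part in the smaller share was not tested. PCNA had 55.3 to 65.4 CPM (median 57.1) in the 5-library set and 43.0 to 52.0 CPM (median 44.6) in the 8-library set (log2 fold change 0.35 ± 0.084, edgeR adjusted p 0.00730). MCM5 had 12.7 to 14.9 CPM (median 14.1) in the 5-library set and 15.8 to 23.0 CPM (median 20.1) in the 8-library set (-0.62 ± 0.11, edgeR adjusted p 0.000789), and MCM2 had 18.5 to 26.7 CPM (median 19.3) in the 5-library set and 26.1 to 33.8 CPM (median 33.2) in the 8-library set (-0.58 ± 0.16, edgeR adjusted p 0.0134). E2F1 had 0.793 to 1.33 CPM (median 1.097) in the 5-library set and 1.43 to 2.98 CPM (median 1.93) in the 8-library set (-1.10 ± 0.34, edgeR adjusted p 0.0251). PCNA, MCM5 and E2F1 did not overlap between these sets, while MCM2 did. The other S phase genes did not pass, with edgeR adjusted p 0.284 for MCM3, 0.825 for MCM4, 0.178 for MCM6, 0.493 for RRM1, 0.869 for RRM2 and 0.106 for TYMS. The 5-library set holds no High-fertile heifer, so a difference of these genes between classes and between sets cannot be told apart for the heifers outside the 8-library set.

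**Figure D5:**
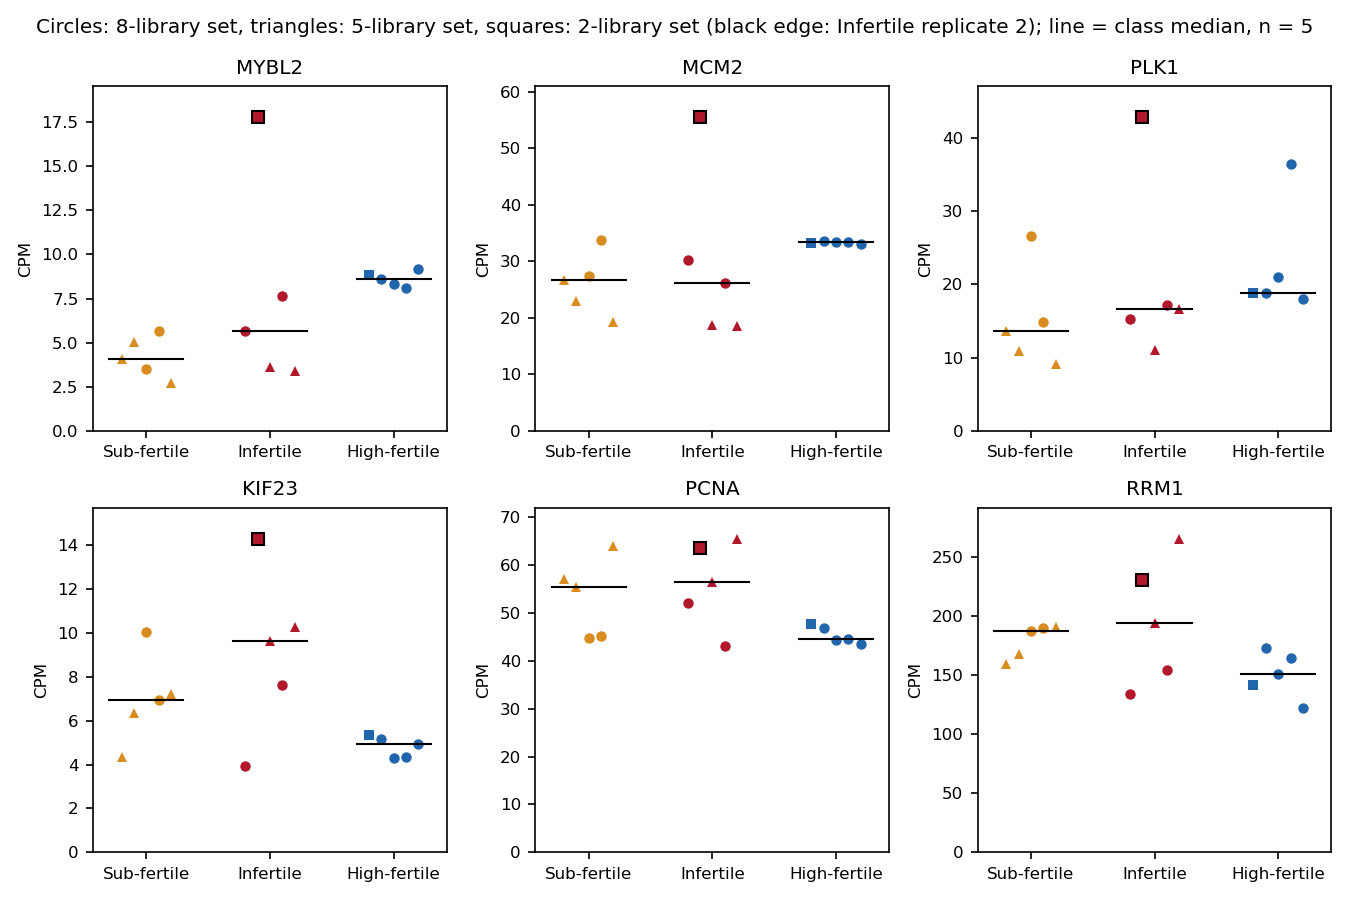
CPM (linear axis from 0) of MYBL2, MCM2, PLK1, KIF23, PCNA and RRM1 in each heifer by class (Sub-fertile, Infertile, High-fertile; n = 5 each), marker shape giving the library set, the line the class median and the black edge Infertile replicate 2. Sub-fertile MYBL2 lies below all High-fertile values, and PCNA lies higher in the 5-library than in the 8-library set.

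The rest of the cell cycle network gave no call in any comparison. Of 133 genes in 5 further lists, 128 were tested; GINS1, SGO1, SGO2 and KNL1 were not in the table under these symbols. Sub-fertile against High-fertile heifers had 66 above and 62 below 0. The log2 fold change of CDC45, a helicase co-factor among the genes with the smallest p, was -0.45 ± 0.17 (SE; 13.7 ± 1.13 CPM over the Sub-fertile and 18.7 ± 5.18 CPM over the High-fertile class, edgeR adjusted p 0.360). The RB family gene RBL1 was at 0.496 ± 0.19 and RB1 at 0.30 ± 0.17, E2F4, a repressor that works with RB family proteins, at -0.50 ± 0.22, and MYBL1, a relative of MYBL2, at 0.56 ± 0.26. MYC, a growth regulator, was at -0.53 ± 0.29, the cyclin CCNE2 at 0.51 ± 0.29, the centromere gene CENPN at 1.28 ± 0.47 and the condensin gene SMC2 at 0.43 ± 0.18. No gene of these lists had an edgeR adjusted p below 0.360.

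Infertile against High-fertile heifers had 99 of the 128 above and 29 below 0 with all libraries, and 51 above and 77 below without Infertile replicate 2. Log2 fold changes follow with their SE, and in brackets without that library. Genes with the smallest p included GMNN at 0.67 ± 0.19 (0.59), the inhibitor of licensing, and RPA3 at 0.52 ± 0.15 (0.55), of the single-strand binding complex. Further ones were RBL1 at 0.61 ± 0.19 (0.71), BTG2 at 0.29 ± 0.18 (0.43) and CENPN at 1.45 ± 0.47 (1.04), which kept their direction. By contrast ASPM at 2.31 ± 1.00 (-0.51), E2F7 at 1.53 ± 0.72 (-0.25) and CCNE1 at 0.43 ± 0.47 (-0.39) had opposite signs, while E2F8 at 3.20 ± 1.03 (1.03) and CCND3 at -0.52 ± 0.41 (-0.34) did not. Infertile against Sub-fertile heifers had 85 above and 43 below 0, and 55 and 73 without the library. There, HJURP at 3.69 ± 1.11 (0.58) and CENPA at 1.85 ± 0.64 (0.44), both of the centromere, DUT at 0.60 ± 0.25 (0.23) and UHRF1 at 1.30 ± 0.60 (-0.11) had the smallest p of their lists. The other smallest-p genes were MYC at 0.62 ± 0.29 (0.21), CDC25A at 0.49 ± 0.36 (-0.058), GADD45A at 0.45 ± 0.25 (0.11), RB1 at -0.22 ± 0.17 (-0.13), E2F8 at 2.56 ± 0.99 (0.40) and E2F3 at 0.66 ± 0.36 (0.15), and no edgeR adjusted p was below 0.998.

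Among the other 14 heifers, 2 of 36 genes passed the adjusted threshold for a relation with MKI67 by Pearson's r, and none by Spearman's rho. Across these 14 libraries log2(CPM + 0.1) of MKI67 was set against each of the 36 other tested genes, with 100000 two-sided permutations; 29 were positive and 7 negative. CDC20 had Pearson r 0.755 (permutation p 0.00186, adjusted over 36 relations 0.0335) and Spearman rho 0.754 (p 0.00289, adjusted 0.104), and RRM1 Pearson r -0.775 (permutation p 0.00135, adjusted over 36 relations 0.0335) and Spearman rho -0.670 (p 0.0105, adjusted 0.104). Without the heifers farthest from the median of MKI67, Infertile replicate 5 (0.919 CPM) and High-fertile replicate 5 (4.17 CPM), r was 0.541 (permutation p 0.0689, n = 12) for CDC20 and -0.445 (permutation p 0.147) for RRM1. Within the 8-library set r was 0.640 for CDC20 and -0.576 for RRM1 (exact permutation p 0.0854 and 0.132, n = 8). Both kept their sign in these smaller sets with a smaller r, and with p above 0.05. BUB1B had Pearson r 0.675 (permutation p 0.00916, adjusted over 36 relations 0.0682) and Spearman rho 0.679 (p 0.00962, adjusted 0.104), with r 0.677 without those 2 heifers (permutation p 0.0155) and 0.934 within the 8-library set (exact permutation p 0.000893, adjusted over 36 relations 0.0321). For RRM2 r was 0.670 over 14 libraries, 0.677 without the 2 heifers and 0.856 within the 8-library set, and for KIF11 it was 0.658, 0.624 and 0.882 (permutation p adjusted over 36 relations 0.0682 over 14 libraries and 0.0682 within the 8-library set for both genes). Within the 8-library set 14 of the 36 relations had an unadjusted exact p under 0.05, 12 positive and 2 negative (MCM5 and CCNB1), and BUB1B alone passed after adjustment. These points share library depth and the CPM scale, and most of the genes are at few counts. The permutations also took no account of class. In High-fertile, Sub-fertile and the 4 other Infertile heifers MKI67 averaged 2.64, 1.98 and 1.72 CPM and CDC20 0.766, 0.287 and 0.336 CPM. RRM1 averaged 150.3, 179 and 187 CPM in the same order, and the part of class in these relations was not tested.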

How the data were processed

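Endometrial RNA was purified with an RNeasy kit and made into TruSeq stranded mRNA libraries, 1 for each of 15 heifers, per the labels' protocols. The submitters' processing notes name FastQC, Subread, featureCounts, edgeR and the UMD3.1 build, without versions or strand setting. The deposited gene table holds whole read counts, used for every test, and FPKM values, used only to compare levels between genes. Symbols are those of the deposited table; all 38 also occur in a RefSeq annotation of another assembly, so no coordinates are given.

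Counts were analysed with edgeR 4.0.16 in R 4.3.3: filterByExpr by class (19962 genes), TMM scaling, 1 quasi-likelihood model with a mean per class (robust, 12 residual degrees of freedom), two-sided p-values adjusted by Benjamini-Hochberg over all genes tested, threshold 0.05. Log2 fold changes carry their SE, CPM values their SD over 5 heifers. Fold changes of 0 counts depend on the model's prior count. The script was tested on simulated data. Alternatives were RLE, upper-quartile and library-size scaling, 2 filters, DESeq2 1.42.0, limma-voom 3.58.1, the likelihood ratio test, no robust estimation, the 2 classes compared alone, a threshold of 0.10, the library sets as a covariate, the 8-library set, and each library left out. Genes given in full are 18 members chosen by role and the member with the smallest p in each comparison, and of each further list the 2 genes with the smallest p; KIF20A and PLK1 values in comparisons, and MCM2 and MCM3, were added after their values were seen. The members and lists were chosen with earlier results of these data known. Cell-type lists were read as summed CPM, with no test; FDCSP, JCHAIN, GNLY, IFNT and IFNT3 were not found under these symbols. Some genes of the further and cell-type lists are not reported here.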

Additional observations from a re-analysis of the deposited data

Results flagged for a closer look

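In a class of 5 heifers, a highest or lowest value was taken as far from the others when its gap to the nearest was over 0.71 of the whole range, Dixon's critical value. Chance alone marks about 1 in 20 of such groups, 114 gene-by-class groups were examined, and the genes of 1 library are not independent. Infertile replicate 2 was such a high value in its class for 26 genes, 25 of them among the 37 tested, against 4.7% of the 19962 genes tested. That library was singled out by MKI67, 1 of the 26. The level in CPM was, for the DNA replication and nucleotide genes and the transcription factors, MCM3 36.4, RRM2 19.6, E2F1 6.76 and FOXM1 3.11. For cyclins, kinases and the checkpoint it was CCNA2 7.11, CCNB2 3.47, AURKA 4.59, AURKB 9.28, PLK1 42.8, TTK 0.489, BUB1 11.6 and BUB1B 11.3. Among spindle, kinetochore and cytokinesis genes it was CENPE 16.1, CENPF 33.5, KIF11 13.0, KIF20A 11.8, KIF2C 5.49, NUSAP1 13.1, PRC1 16.7, TPX2 20.7 and CDCA8 4.85. The chromosome and anaphase-promoting complex genes were at TOP2A 56.4, NCAPG 13.0, MKI67 46.7, CDC20 8.28 and UBE2C 9.53. In the other classes PLK1 in High-fertile replicate 4 (36.4 CPM), KIF20A and UBE2C in High-fertile replicate 5 (1.87 and 1.71 CPM), KIF2C in Sub-fertile replicate 1 (0.810 CPM) and NUSAP1 in Sub-fertile replicate 5 (2.94 CPM) lay as far above the rest of their class. No cause was tested for any of these values.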

How the results depend on the processing

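No paired analysis was possible because the labels carry no replicate number and those used here follow accession order. The count of 0 called genes held in every comparison under all alternatives, the threshold of 0.10 included. Other scalings moved the median of all genes by at most 0.043 (log2). The median log2 fold change of Sub-fertile against High-fertile was -0.022 with the stricter filter, 0.061 with the sets as a covariate, -0.28 in the 8-library set and -0.21 with the sets and without Infertile replicate 2. For Infertile against High-fertile it was -0.22 without Infertile replicate 2, 0.31 with limma-voom, 0.28 with the sets, -0.28 in the 8-library set and -0.29 with the sets and without that library, a combination chosen after seeing the data. For Infertile against Sub-fertile these were -0.053 without the library, 0.12 with the sets, -0.0019 in the 8-library set and -0.037 with both. Leaving out each library in turn gave medians of -0.24 to -0.15 for Sub-fertile against High-fertile, -0.22 to 1.098 for Infertile against High-fertile and -0.053 to 1.097 for Infertile against Sub-fertile, both of the last being lowest without Infertile replicate 2.

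Of 667 single-gene log2 fold changes under alternatives, over 24 gene-by-comparison results and with the fit without Infertile replicate 2 counted once, 24 had the opposite sign, and no other changed its sign or its side of the threshold. With the sets as a covariate these were MKI67 (0.30) and MCM2 (0.076) in Sub-fertile against High-fertile, and PLK1 (0.013) and KIF20A (-0.031) in Infertile against High-fertile. In the 8-library set they were PCNA (-0.0091) in Sub-fertile against High-fertile, and CDK1 (-0.32), RRM1 (-0.090), BUB1B (-0.44), MKI67 (-0.29) and KIF20A (-0.77) in Infertile against High-fertile. Without Infertile replicate 2 they were BUB1B (-0.36), MKI67 (-0.61) and KIF20A (-0.78) against High-fertile and TOP2A (-0.099) and MKI67 (-0.20) against Sub-fertile, and with the sets besides -0.53, -0.43, -0.85, -0.0012 and -0.24 for the same genes. With 1 library left out in turn the values ranged over -0.36 to 2.23 for BUB1B (Infertile against High-fertile), -0.78 to 1.51 for KIF20A (Infertile against High-fertile), -0.61 to 2.32 for MKI67 (Infertile against High-fertile), -0.20 to 2.73 for MKI67 (Infertile against Sub-fertile), -0.76 to 0.0078 for MYBL2 (Infertile against High-fertile), -0.59 to 0.10 for PLK1 (Infertile against High-fertile) and -0.099 to 2.79 for TOP2A (Infertile against Sub-fertile). The cause was not tested. Values rest on few counts for most of these genes, which limits their precision.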
